A study of Mus musculus with 12 samples.

Results

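Pcp2, Ppp1r17, Car8, Calb1, Slc1a6, Itpr1 and Rgs8 are 7 genes known for strong expression in the Purkinje cells of the cerebellum, and they are described here among the 55487 genes of a count table from mouse brain and liver. They were chosen on their lower counts in the brains of Mettl5 knockout (KO) mice, so that difference is given as a description and is not tested. All 7 symbols matched 1 row each. Total RNA was sequenced from the brain and the liver of 6 mice, 3 labelled KO (mice A, C and F) and 3 labelled wild type (WT; mice B, D and E), which gave 12 libraries in 4 groups of 3. The labels give no age, sex, litter or treatment. In brain, Xist had 9446 reads in KO mouse F, 10154 in WT mouse E and at most 3 in the other mice. Those other mice had 2415 to 3445 Y-linked counts, so the reads mark F and E as female and the others as male. METTL5 is the methyltransferase for an adenosine in the 18S rRNA of the small ribosomal subunit. In the KO line the second Mettl5 exon was flanked by loxP sites in hybrid embryonic stem cells with 1 C57bl/6 parent, the mice were backcrossed to B6, and the exon was removed in the whole body with a CMV-cre transgene. The study used both sexes over a range of ages. Its text calls the control mice of the RNA-seq heterozygous, whereas the labels and a supplementary title of the study call them WT. The label of the brain libraries is "brain" and does not say whether the whole organ or a part of it was taken.

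Purkinje cells are the large inhibitory neurons of the cerebellar cortex and its only output. Each receives a great many excitatory parallel fibre contacts from granule cells and a strong climbing fibre contact, and glutamate at these contacts leads, through a G protein and phospholipase C, to inositol trisphosphate (IP3) and the release of calcium from the endoplasmic reticulum. Some of the 7 genes belong to this chain and others act beside it. Itpr1 encodes the IP3 receptor, Car8 a carbonic anhydrase-related protein without enzyme activity that binds the IP3 receptor, and Calb1 the calcium buffer calbindin. Pcp2 and Rgs8 encode regulators of G protein signalling, Slc1a6 the glutamate transporter EAAT4, and Ppp1r17 a substrate of cGMP-dependent protein kinase that inhibits protein phosphatases.

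The genes lie on 5 autosomes, at positions that were the same in GENCODE vM21 (mm10). Rgs8 (ENSMUSG00000042671.12) is at chr1:153653025-153700323 on the plus strand, Car8 (ENSMUSG00000041261.9) at chr4:8143362-8239041 on the minus strand and Calb1 (ENSMUSG00000028222.2) at chr4:15881264-15908064 on the plus strand. Ppp1r17 (ENSMUSG00000002930.6) is at chr6:56017497-56032689 and Itpr1 (ENSMUSG00000030102.11) at chr6:108213096-108551109, both on the plus strand. Pcp2 (ENSMUSG00000004630.18) is at chr8:3623371-3625545 on the minus strand, and Slc1a6 (ENSMUSG00000005357.9) at chr10:78780496-78814765 on the plus strand. Reads were counted over exons, whose summed length ran from 1757 bases for Ppp1r17 to 18319 bases for Itpr1. The Pcp2 promoter is widely used to direct transgenes to Purkinje cells, and the sequence upstream of Pcp2, the gene with the lowest KO level relative to WT, is shown beside that of Rgs8 for comparison. Both are RefSeq promoter windows of GRCm38.p6, which held 3 of the 7 genes (Pcp2, Rgs8 and Slc1a6), cut to the bases before the RefSeq start, which for both genes differs from the GENCODE start given above. The Slc1a6 window lies inside the RefSeq span of the gene and is not shown. Capitals mark matches to AGGTCA, the half-site bound by the orphan receptor ROR-alpha, and to TAATTA, a core bound by LIM homeodomain factors. Both strands were searched.
Pcp2 (chr8:3625548-3625797, minus strand): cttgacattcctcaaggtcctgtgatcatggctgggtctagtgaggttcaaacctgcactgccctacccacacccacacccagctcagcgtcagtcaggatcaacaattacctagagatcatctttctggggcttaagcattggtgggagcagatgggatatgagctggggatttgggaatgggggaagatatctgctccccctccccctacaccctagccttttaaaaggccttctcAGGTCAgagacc
Rgs8 (chr1:153652787-153652958, plus strand): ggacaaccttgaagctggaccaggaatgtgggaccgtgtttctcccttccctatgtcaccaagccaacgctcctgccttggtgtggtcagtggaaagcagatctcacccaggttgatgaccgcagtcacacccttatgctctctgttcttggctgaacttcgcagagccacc

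The Pcp2 sequence held 1 AGGTCA match, which began 12 bases before the RefSeq start, and the Rgs8 sequence held 0. Neither held TAATTA. Of 32851 mouse promoter windows of 250 bases, 14% held AGGTCA and 4.84% held TAATTA, and at the 172 bases shown for Rgs8 the shares were 9.9% and 3.24%. Matches of this length are common among promoters, and the letters alone do not show that a factor binds.

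The libraries held from 14403309 to 21623180 counts, and libraries of 1 group had Pearson correlations of 0.976 to 0.990 across genes. Mettl5 itself was read at 3.33, 3.96 and 3.82 CPM (read counts scaled to a library of fixed size) in the KO brains of mice A, C and F, and at 9.09, 5.87 and 5.02 CPM in the WT brains of mice B, D and E. The KO libraries were lower than the WT libraries without overlap in brain and in liver, but the gene was not called in either tissue (log2 fold change in brain -0.84, SE 0.27, adjusted p 0.373 in edgeR's quasi-likelihood test). Counts over the remaining exons do not report the deletion itself. In the brain libraries the 2 mitochondrial rRNA genes took 31.6%, 21.4% and 22.1% of all counts in KO mice A, C and F, and 17.7%, 7.63% and 11.7% in WT mice B, D and E, so this share also separated the genotypes. Its part in the values of the 7 genes was not tested, and the median log2 fold change of the 7 genes was -1.43 with the mitochondrial genes left out and -1.44 with them. The tissue labels held, since the summed CPM of 8 hepatocyte genes was 12.5 to 31.7 in brain and 90108 to 122038 in liver. The replicates are separate mice. The study describes the KO and control mice as pairs, but no label says which mice form a pair, so pairs could not be fitted.

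Of the IP3 receptor group, Itpr1 was the most abundant of the 7 genes per length. Its level in brain was 673, 1036 and 740 CPM in KO mice A, C and F, and 1162, 1594 and 1363 CPM in WT mice B, D and E. The highest KO library stood at 89.2% of the lowest WT library, the narrowest separation of the 7. The means were 817 ± 193 CPM in KO and 1373 ± 216 CPM in WT (SD, n = 3 each), a log2 fold change of -0.75 (SE 0.20). Car8 read 29.8, 108.9 and 97.9 CPM in KO mice A, C and F, against 288, 270 and 210 CPM in WT mice B, D and E. Here the gap was wide, with the highest KO library at 51.8% of the lowest WT library, and mouse A lay far below the other KO mice. The mean was 30.8% of WT (log2 fold change -1.70, SE 0.42). Calb1, the calcium buffer, read 103.9, 118 and 153 CPM in KO mice A, C and F and 222, 215 and 184 CPM in WT mice B, D and E. Its log2 fold change of -0.73 (SE 0.17) was close to that of Itpr1, and its libraries were the most alike within a genotype, with the highest KO library 1.47 times the lowest.

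Among the regulators of G protein signalling, Pcp2 had the lowest log2 fold change and the widest KO range of the 7 genes, although Ppp1r17 was lower without mouse A, and Ppp1r17 and Car8 without mouse D. It read 2.28, 23.3 and 14.04 CPM in KO mice A, C and F, and 43.0, 72.1 and 38.1 CPM in WT mice B, D and E. All KO libraries were below all WT libraries, but the KO libraries spanned 10.2-fold among themselves and the WT libraries 1.89-fold. The KO mean of 13.2 ± 10.5 CPM was 25.9% of the WT mean of 51.0 ± 18.4 CPM (SD, n = 3 each; log2 fold change -1.94, SE 0.63). In KO mouse A it rested on 28 reads, with an exact Poisson 95% interval of 18.6 to 40.5 that covers counting error only. Rgs8 read 70.4, 143 and 90.8 CPM in KO mice A, C and F and 204, 276 and 191 CPM in WT mice B, D and E. The KO libraries again did not reach the WT range, and their mean was 45.3% of WT (log2 fold change -1.14, SE 0.26).

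Slc1a6 and Ppp1r17 were the least abundant per length. Slc1a6, the perisynaptic glutamate transporter, read 3.33, 9.998 and 6.92 CPM in KO mice A, C and F and 14.8, 28.2 and 12.3 CPM in WT mice B, D and E. Mouse D stood well above the other WT mice, and the WT libraries differed by 2.30-fold, the widest WT range of the 7. The log2 fold change was -1.44 (SE 0.42). Ppp1r17, the phosphatase inhibitor, read 2.52, 9.998 and 6.33 CPM in KO mice A, C and F, and 22.6, 24.9 and 19.7 CPM in WT mice B, D and E. The WT mice were close together (22.4 ± 2.60 CPM) and the KO libraries reached at most 50.8% of the lowest WT library, the clearest separation of the 7. The KO mean of 6.28 ± 3.74 CPM was 28.0% of WT (log2 fold change -1.82, SE 0.39).

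**Figure D1:**
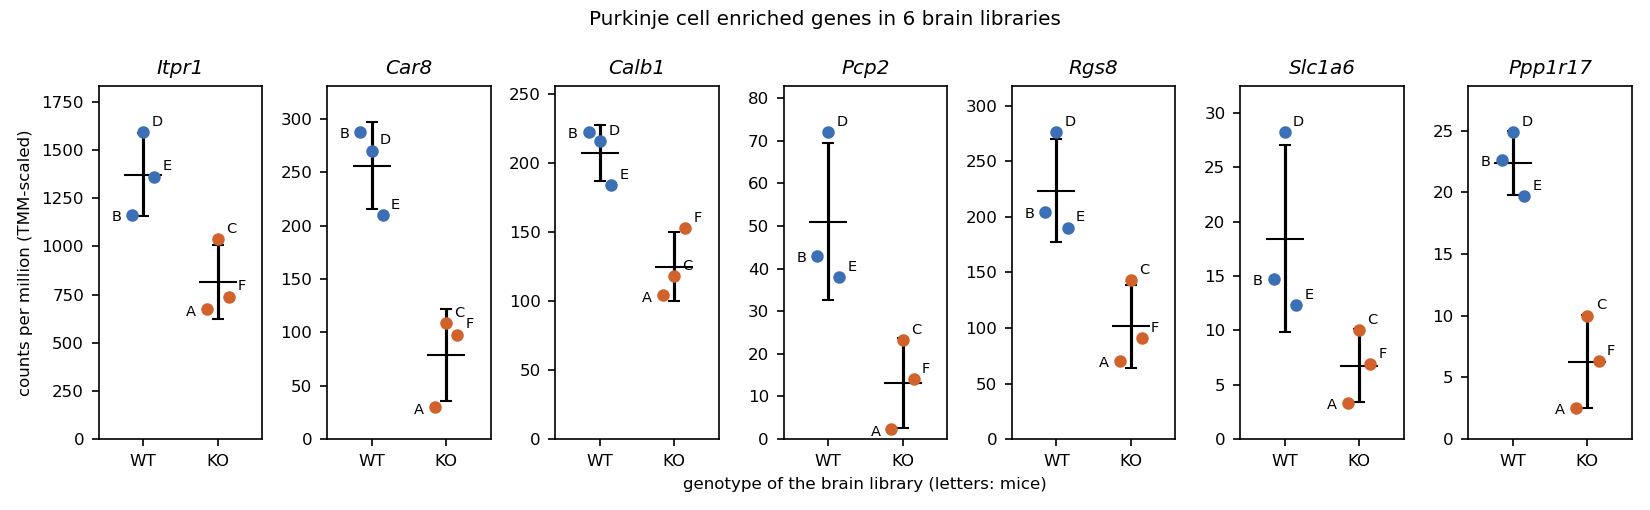
Level of each gene in the 6 brain libraries, as CPM scaled with TMM factors, with 1 panel per gene and its own axis from 0; points are libraries with their mouse letter, bars are the mean and SD of 3. In every panel the 3 KO points lie below the 3 WT points, most narrowly for Itpr1, where the highest KO library is at 89.2% of the lowest WT library.

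Over the 7 genes the log2 fold change ran from -1.94 to -0.73 around a median of -1.44, beside a median of -0.00 over the 17188 genes tested in brain. All 7 had every KO library below every WT library, as did 7.94% of the genes tested. Since the genes were chosen on this contrast, nothing is read from that count. For the same reason no p-value or call is given for them in this comparison. The smallest edgeR adjusted p of any gene lower in KO brain was 0.172, above the threshold of 0.1.

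The order of the mice was largely shared across the genes. KO mouse A was the lowest library for all 7 genes, and for 6 of them the KO order from low to high was A, F, C. For Calb1 it was A, C, F. Among WT mice, D was the highest for 5 genes and B for Car8 and Calb1, and E was the lowest for 6 genes and B for Itpr1. As a percentage of the WT mean, mouse A ran from 4.46% for Pcp2 and 11.2% for Ppp1r17 to 49.0% for Itpr1 and 50.1% for Calb1. Mouse C ran from 42.5% for Car8 to 75.5% for Itpr1. Thus Itpr1 and Calb1 were the least reduced in mouse A, and the genes that stood lowest relative to WT were also those that varied most between KO mice, a pair of measures that both include mouse A. Without mouse A the log2 fold change of Pcp2 was -1.45 and that of Car8 -1.31, and without mouse D that of Slc1a6 was -0.997. Without mouse C the values were further from 0, at -2.62 for Pcp2, -2.32 for Ppp1r17, -2.003 for Car8 and -1.83 for Slc1a6.

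**Figure D2:**
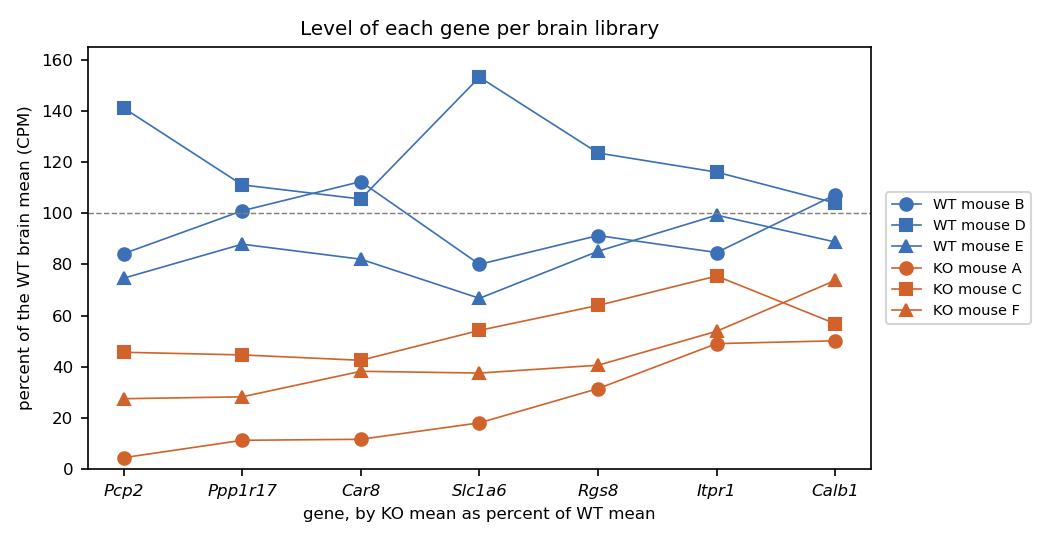
Level of each gene per brain library as a percentage of its WT brain mean in CPM, with genes ordered by the KO mean and 1 line per mouse joining the same library. Mouse A is lowest throughout, from 4.46% for Pcp2 to 50.1% for Calb1, and mouse D reaches 153% for Slc1a6.

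Levels of different genes are compared per length, as CPM per kilobase of exon. In WT brain Itpr1 stood at 75.0 ± 11.8, Car8 at 66.5 ± 10.6, Calb1 at 42.7 ± 4.22, Pcp2 at 27.9 ± 10.04, Rgs8 at 23.2 ± 4.79, Ppp1r17 at 12.7 ± 1.48 and Slc1a6 at 8.57 ± 3.99 CPM per kilobase (SD, n = 3). The WT ranges of the neighbours Itpr1 and Car8 overlapped, as did those of Calb1 and Pcp2, of Pcp2 and Rgs8, and of Ppp1r17 and Slc1a6, whereas Car8 lay above Calb1, and Rgs8 above Ppp1r17, in all WT libraries. In KO brain the order by mean was Itpr1 (44.6 ± 10.5), Calb1 (25.8 ± 5.20), Car8 (20.5 ± 11.1), Rgs8 (10.5 ± 3.89), Pcp2 (7.22 ± 5.77), Ppp1r17 (3.58 ± 2.13) and Slc1a6 (3.14 ± 1.55 CPM per kilobase). Car8 and Pcp2 each stood 1 place lower than in WT, behind Calb1 and Rgs8, although the KO ranges of these neighbours overlapped.

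The choice of genes used no liver library, so the genotypes can be tested there. Only Car8 and Itpr1 had enough liver reads to be tested, and neither was called. Car8 read 78.1, 73.2 and 90.0 CPM in the KO livers of mice A, C and F, and 76.6, 59.9 and 86.6 CPM in the WT livers of mice B, D and E. The groups overlapped, and the log2 fold change was 0.11 (SE 0.16, 95% interval -0.26 to 0.48, adjusted p 0.939 in edgeR). Itpr1 read 160, 132 and 131 CPM in KO livers A, C and F and 153, 126 and 147 CPM in WT livers B, D and E. Its groups also overlapped, with a log2 fold change of -0.01 (SE 0.14, 95% interval -0.33 to 0.31, adjusted p 0.995 in edgeR). The share of genes called in liver was 0.00%, 0 of 14075 genes by edgeR, where 1032 genes had an unadjusted p under 0.05 and DESeq2 called 171. Both liver intervals lie above the fold change of the same gene in brain, but the brain value chose the genes and the difference between tissues was not tested. The other 5 genes had at most 4 reads in any liver library.

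**Figure D3:**
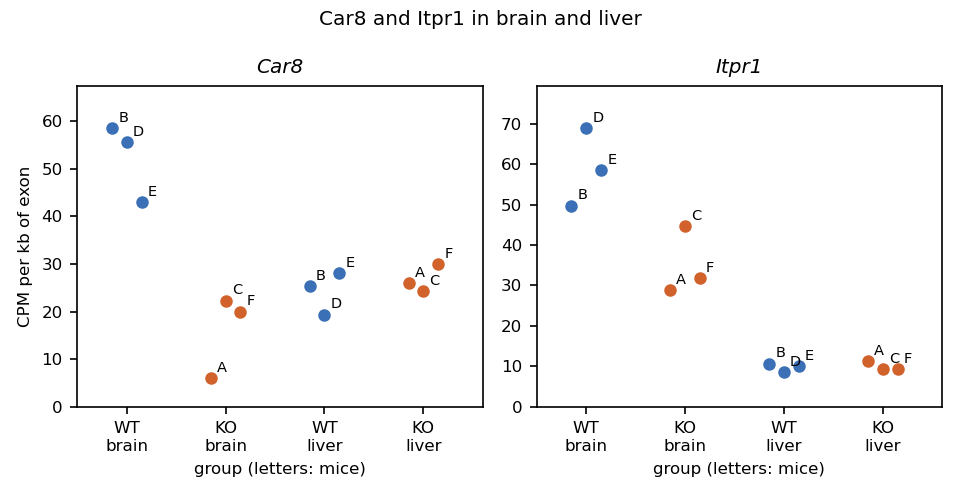
Car8 (left) and Itpr1 (right) in all 12 libraries, as CPM per kilobase of exon on an axis from 0, grouped by genotype and tissue, with points labelled by mouse. The 12 libraries were scaled together, so the brain values differ from those per kilobase in the text, which were scaled over brain alone. The KO and WT livers overlap for both genes, and the KO brains lie below the WT brains.

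WT brain was compared with WT liver to show how far each gene belongs to the brain in the control mice alone. The WT brain libraries are also 1 side of the contrast that chose the genes, so the values are a description and no test of the 7 is given. Of all 17694 genes tested 42.9% were called higher in brain. Car8 and Itpr1 were read in both tissues. Car8 was at 207 ± 32.9 CPM in WT brain and 96.4 ± 17.5 CPM in WT liver (SD, n = 3 each; both tissues scaled together), a log2 fold change of 1.10 (SE 0.19). Itpr1 was at 1111 ± 171 CPM in brain and 184 ± 18.9 CPM in liver (log2 fold change 2.59, SE 0.21). The other 5 were nearly absent from liver and passed the filter on low counts through the brain libraries. Pcp2 had 2861 reads over the 3 WT brains and 2 over the 3 WT livers, a depth-corrected ratio of 849 with a 95% counting interval of 235 to 7017. Both liver reads of Pcp2 came from mouse D, and 4 of the 5 of Calb1 from mouse E, so without these mice the ratios would rest on 0 reads and 1 read in liver. Rgs8 had 12472 and 3 reads (ratio 2469, 845 to 11972), Calb1 11401 and 5 (1354, 580 to 4171) and Slc1a6 1037 and 2 (308, 85.0 to 2546). Of the 3 liver reads of Rgs8, 2 came from mouse E, and of the 1037 brain reads of Slc1a6, 563 came from mouse D, so these ratios also depend on 1 mouse. Ppp1r17 had 1239 reads in WT brain and 0 in WT liver, which makes it at least 245-fold higher in brain when the 3 livers together are set at a floor of 3 reads. These intervals and the floor cover counting error only.

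A list of 15 other genes known from Purkinje cells was also mostly lower in KO brain. Of these, 13 were lower in KO and 2 higher, and their log2 fold changes ran from -1.95 to 0.65 around a median of -0.78. In edgeR 0 were called over all genes, where 0.0640% of the genes tested were called in either direction; 9 were lower and 1 higher at an unadjusted p under 0.05, where 5.01% of genes were lower. DESeq2 called 4 lower, where it called 0.419% of 31780 genes lower, and 7 had all KO below all WT libraries, beside 7.94% of the genes tested. Casq2, a calcium store protein, had a log2 fold change of -0.98 (SE 0.25) and Gng13, a G protein gamma subunit, of -0.78 (SE 0.22), neither past the threshold in edgeR. Other genes are named after their values were seen. Rora, which encodes ROR-alpha and is needed for Purkinje cell development, read 192, 180 and 218 CPM in KO mice A, C and F and 267, 254 and 248 CPM in WT mice B, D and E. These libraries did not overlap, but the log2 fold change of -0.38 was not called (SE 0.13, adjusted p 0.392 in edgeR). Lhx1, a LIM homeodomain factor, had the lowest value of the list at -1.95 (SE 0.65). The 2 genes that were higher, Foxp2 (0.65, SE 0.24) and Pcp4 (0.24, SE 0.24), were not called, and both are also expressed in neurons outside the cerebellum.

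The signalling chain around Itpr1 was followed with 24 further genes of G protein, IP3 and calcium signalling. Here 19 were lower and 5 higher, and the median was -0.23 on the log2 scale. In edgeR 0 were called, beside 0.0640% of all genes tested in either direction. At an unadjusted p under 0.05 in edgeR, 6 were lower and 0 higher, beside 5.01% of all genes lower. DESeq2 called 3 lower, beside 0.419% of all genes. All KO libraries were below all WT libraries for 4, beside 7.94% of all genes. Homer3, a scaffold protein of the postsynaptic density that binds the IP3 receptor and is itself among the study's calls, was the most reduced. It read 6.67, 21.8 and 15.5 CPM in KO mice A, C and F and 41.2, 61.7 and 36.9 CPM in WT mice B, D and E, the same order of mice as for Pcp2 (log2 fold change -1.66, SE 0.39, adjusted p 0.320 in edgeR). The values of several other genes are given after they were seen. The G protein gene Gnaq was at -0.03 (SE 0.13), the other IP3 receptor genes Itpr2 and Itpr3 were at -0.05 (SE 0.18) and -0.97 (SE 0.54), and Ryr2, the second type of calcium release channel, was at -0.00 (SE 0.14). Prkg1, which encodes the kinase that phosphorylates the Ppp1r17 protein, was the 1 gene with all KO libraries above all WT libraries (log2 fold change 0.25, SE 0.14, not called). The share of all genes with that order is not given here.

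Genes of other cerebellar cells also had lower mean levels in KO than in WT in the same libraries, with 0 called in edgeR. Their values are given because fewer Purkinje cells in a sample and less RNA of the 7 genes per cell cannot be told apart in bulk tissue. All 11 cerebellar granule cell genes stood below WT in the KO libraries on average, by a median of -1.46 on the log2 scale, next to -1.44 for the 7 Purkinje genes. Their summed level was 163 to 789 CPM in KO and 1049 to 1950 CPM in WT. In edgeR 9 had an unadjusted p under 0.05 and 0 were called, and DESeq2 called 2. Over all genes, beside this list and the next, 5.01% were lower at that p. In edgeR 0.0640% were called in either direction, and DESeq2 called 0.419% lower. Cbln1, a secreted protein of granule cells, was at 30.9 ± 18.6 CPM in KO and 105 ± 29.8 CPM in WT (log2 fold change -1.76, SE 0.48, adjusted p 0.355 in edgeR). Zic1 (-1.26, SE 0.34) and Chn2 (-1.45, SE 0.40) are among the study's calls. All 7 genes of other cerebellar cells were also lower (median -1.49, summed level 23.5 to 68.5 CPM in KO and 73.8 to 157 CPM in WT; 0 called in edgeR and in DESeq2, 4 at an unadjusted p under 0.05), led by Tfap2b (-1.88, SE 0.65), En2 (-1.79, SE 0.69) and Gdf10 (-1.51, SE 0.62). The median of these 7 genes was -2.31 without mouse C and -0.89 without mouse D. Without mouse C, Tfap2b was at -3.12 and was called (adjusted p 0.0921 in edgeR), and Gdf10 was at -2.30 without mouse C and -0.89 without mouse D. No marker of these 2 lists was at 0 in any brain library. Their part in the difference of the 7 genes was not tested.

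The shared pattern was also seen library by library. On the mean centred log2(CPM + 0.5) scale, the 7 Purkinje genes stood at -1.55, -0.12 and -0.52 in KO mice A, C and F and at 0.67, 1.03 and 0.49 in WT mice B, D and E. The granule cell genes stood at -2.12, 0.15 and -0.58 in the KO mice and at 0.66, 1.40 and 0.50 in the WT mice, in the same order of all 6 mice. The Purkinje mean minus the granule mean was 0.57, -0.27 and 0.06 in KO mice A, C and F and 0.01, -0.37 and -0.00 in WT mice B, D and E. On this difference the genotypes overlapped. The pan-neuronal genes lay between -0.12 and 0.12 in all 6 libraries.

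**Figure D4:**
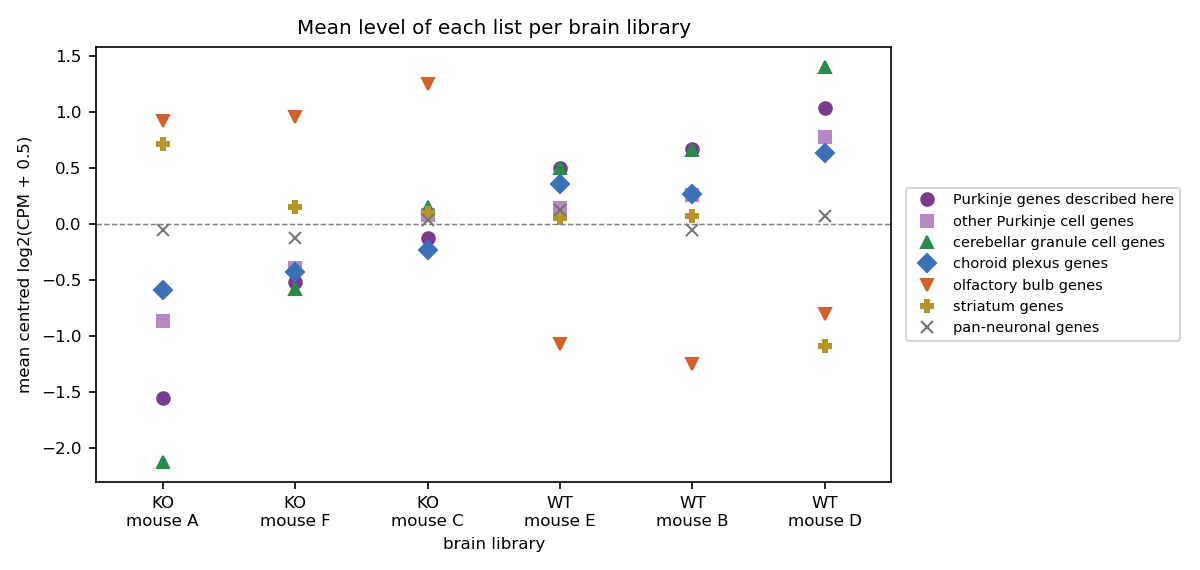
Mean over each list of log2(CPM + 0.5), centred per gene over the 6 brain libraries, with the libraries ordered by the mean of the 7 Purkinje genes. The Purkinje and granule cell means climb together from -1.55 and -2.12 in KO mouse A to 1.03 and 1.40 in WT mouse D, and the olfactory bulb mean is above 0 in KO and below 0 in WT.

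Counts for regions outside the cerebellum stand beside these shares over all genes. In edgeR 0.0640% were called, all higher in KO, and 5.01% were lower at an unadjusted p under 0.05. The share higher at that p is not given here. Of 31780 genes DESeq2 called 136 higher and 133 lower. The 9 olfactory bulb genes were all higher in KO (median 3.65 on the log2 scale), at a summed level of 47.6 to 68.9 CPM in KO and 7.48 to 17.4 CPM in WT. In edgeR 5 of them rose (Omp at 3.70, S100a5 at 6.21, Cdhr1 at 2.72, Sp8 at 2.85 and Doc2g at 3.65, with adjusted p from 0.00674 to 0.0309 in edgeR and each among the study's calls), and S100a5, Tbx21 and Scgn had 0 reads in the brain of WT mouse E. Omp and S100a5 were called without each of the 6 mice in turn. Of the other genes, Cdhr1 and Sp8 lost their call without mouse B, D, E or F and Doc2g without mouse A, B, E or F, so that 2 of the 5 were called without B, E or F, 3 without D and 4 without A. The 10 choroid plexus genes were all lower (median -0.98, summed level 127 to 196 CPM in KO and 253 to 411 CPM in WT; 0 called in edgeR, 8 at an unadjusted p under 0.05, 4 called by DESeq2), led by Tmem72 (-1.71, SE 0.30), Slc4a5 (-1.59, SE 0.35) and Clic6 (-0.88, SE 0.22). The 10 striatum genes were all higher with a median of 0.59, but their summed levels overlapped (727 to 1052 CPM in KO, 402 to 732 CPM in WT); 0 were called in edgeR or DESeq2 and 1 had an unadjusted p under 0.05. Tac1 (0.92, SE 0.34), Rgs9 (0.79, SE 0.40) and Penk (0.42, SE 0.23) had the smallest p. Of the 9 hippocampus genes 8 were tested, all lower (median -0.58; 0 called in edgeR, 2 at an unadjusted p under 0.05, 1 called by DESeq2), led by Prox1 (-0.76, SE 0.22), Dsp (-1.34, SE 0.56) and C1ql2 (-0.88, SE 0.52). The pan-neuronal list of 8 genes had a median of -0.03, the 7 astrocyte genes of -0.30 and the 6 oligodendrocyte genes of -0.16, with 0 called in edgeR and DESeq2 and 2, 2 and 0 genes at an unadjusted p under 0.05. The smallest p of these lists belonged to the neuronal gene Stmn2 (-0.38, SE 0.13), the astrocyte glutamate transporter gene Slc1a3 (-0.42, SE 0.17) and the myelin gene Mag (-0.48, SE 0.24). Of 8 hepatocyte genes 6 were tested in brain, with a median of -0.58, 0 called in edgeR and DESeq2 and 1 at an unadjusted p under 0.05. Whether these differences in other regions bear on the Purkinje genes was not tested.

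**Figure D5:**
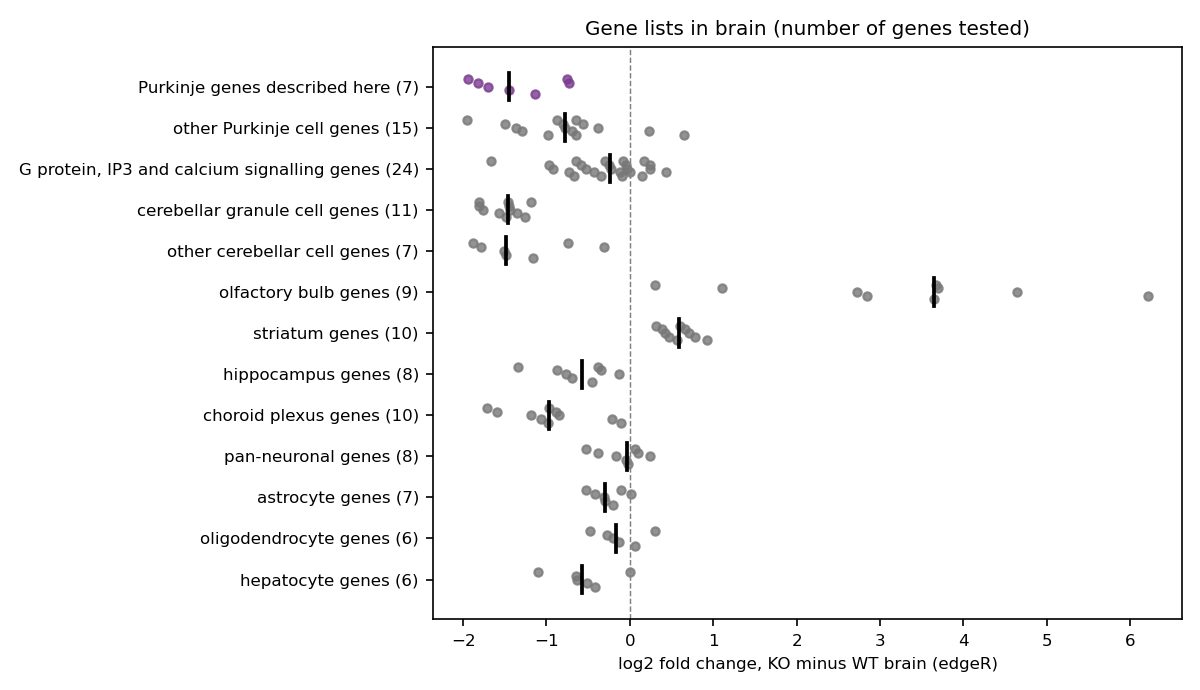
Log2 fold change of each gene, KO minus WT brain, by list, with the number of genes tested in parentheses; points are genes, spread vertically for visibility, and bars are medians. The 7 Purkinje genes (median -1.44) and the granule cell genes (median -1.46) lie left of 0, the olfactory bulb genes (median 3.65) right of it and the pan-neuronal genes (median -0.03) around it.

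The genes whose pattern was most like that of the 7 were found among 11501 genes with a mean of at least 5 CPM, by Pearson's r with the mean centred log2 CPM of the 7 over the 6 brain libraries. The first 8 were Homer3, Cep76, Barhl2, Sel1l3, Nrep, Gm2694, Zic1 and Pias4, with r from 0.995 to 0.999. These 6 libraries include the genotype difference that chose the 7 genes, and several of the 8 are among the study's calls, so r is a description. None of the 8 was called in edgeR (adjusted p 0.320 to 0.390), and their log2 fold changes ran from -1.87 for Barhl2, a homeobox factor, to -0.62 for Pias4, a SUMO ligase. Cep76, a centrosomal gene, read 7.64, 15.7 and 12.2 CPM in KO mice A, C and F and 24.0, 27.5 and 20.6 CPM in WT mice B, D and E. When each library was set against the mean of its own genotype, the first 8 were Tmem51, Ndst2, Lipe, Phf21b, Pias4, Rnf182, Homer3 and Tmem214 (r 0.996 to 0.999). Homer3 and Pias4 appeared in both sets, and Homer3 is the only one of the 8 genes of the second set that was in any list used here.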

How the data were processed

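Total RNA was sequenced from 12 libraries (SMARTer Stranded Total RNA kit, single-end reads). The authors trimmed reads with Trimmomatic, aligned them to mm10 with STAR 2.7.3a and deposited raw counts per gene from featureCounts, counted by strand over exons. FastQC 0.11.5 was used for quality. The deposited file also gives an exon length per gene. All later values were computed here from these counts. Symbols were matched by Ensembl ID for 55141 of 55487 genes. KO and WT were compared within each tissue, and WT brain with WT liver, with edgeR 4.0.16 (quasi-likelihood F test, TMM scaling, filterByExpr) in R 4.3.3, with p-values adjusted by Benjamini-Hochberg across every gene of the fit and calls made below 0.1; DESeq2 1.42.0 was an alternative. CPM used TMM factors per tissue, except where brain was set beside liver, where the libraries shown were scaled together. Log2 values used a pseudocount of 0.5 CPM, and the floor was 3 counts. The 7 genes and all gene lists were chosen with earlier results of these data known. Named genes were the 7, Mettl5, each list's called genes or otherwise its 3 with the smallest p, and the 8 most similar genes by each measure; some genes that this rule names are not reported here. With 3 libraries per group, p-values measure the spread between mice. Counting error adds to this spread for genes with few reads. Fits were tested on simulated data. Each mouse letter pairs brain and liver of 1 animal. For the WT mice B, D and E of the tissue comparison, the correlations of the deviations of brain and liver were -0.04, 0.09 and 0.09 across genes.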

Additional observations from a re-analysis of the deposited data

How the results depend on the processing

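The 7 genes kept their direction in brain in 84 of 84 combinations of gene and alternative, and none moved by more than the pooled SD of the gene. The genes were chosen on this contrast and had every KO library below every WT library. Leaving out a mouse could therefore hardly reverse a direction, and nothing is read from this count. Their median log2 fold change was -1.83 (without mouse C) to -0.997 (without mouse D) when 1 mouse was left out and -1.47 to -1.40 otherwise. Under each scaling 7 of 7 stayed without overlap, a count from which nothing is read for the same reason. Calls over all genes depended on the method. In KO against WT brain 11 genes were called, 269 with DESeq2, 1000 without the filter on low counts and 2 (without mouse E) to 23 (without mouse C) when 1 mouse was left out, and each of the 6 mice moved the count by over 1.5 times. In KO against WT liver 0 were called by edgeR (1032 at an unadjusted p under 0.05), 171 with DESeq2, 443 without the filter, 3 with all 12 libraries in 1 fit, 82 with Y-linked transcripts as a covariate, and 0 to 87 without 1 mouse, the highest without mouse D. The cause was not tested. In liver the log2 fold change of Car8 was -0.0190 without mouse D and at most 0.236 (without mouse E), and that of Itpr1, close to 0, was 0.00560 without the filter, 0.0190 with all 12 libraries, and -0.107 (without mouse A) to 0.0479 (without mouse B) when 1 mouse was left out, above 0 also without mouse C, E or F. For WT brain against WT liver 13861 genes were called, 13588 with the mouse as a block, and the block left the log2 fold change of Car8 at 1.11 and that of Itpr1 at 2.59. Depth limits Pcp2, Ppp1r17 and Slc1a6 in KO mouse A (28 to 41 reads) and the 5 genes with at most 4 reads per liver library.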
